A study of Mus musculus with 6 samples.

Results

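The noncanonical NF-kB pathway and CD40, a receptor of that pathway, were examined at the transcript level in tumour-infiltrating dendritic cells. The 10 members, chosen by matching Ensembl mouse gene identifiers to listed symbols, were Cd40, Traf1, Traf2, Traf3, Birc2, Birc3, Map3k14, Chuk, Nfkb2 and Relb. All 10 were present among the 26519 genes of the count table, and all 10 passed the filter on low counts. MC38 cells, a mouse colon carcinoma line, were inoculated into MAVS knockout (KO) and wild-type (WT) mice, and dendritic cells were isolated from the tumours on day 10. RNA sequencing covered 3 libraries from MAVS KO hosts and 3 from WT hosts. The tumour line was the same in both groups, and the genotypes are those of the host. The sources used here do not give the deleted allele, the strain, sex and age of the mice, any pooling of animals or the way dendritic cells were gated. MAVS is the mitochondrial adaptor through which RIG-I-like receptors signal after sensing cytosolic RNA. The comparison addresses how host MAVS shapes the dendritic cells of a tumour, and the series title names interleukin-12, a cytokine that dendritic cells release after CD40 is engaged.

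In the noncanonical pathway, receptors such as CD40 act through control of 1 kinase, NIK, the product of Map3k14. In resting cells TRAF3 joins NIK to a complex of TRAF2 with the ubiquitin ligases cIAP1 and cIAP2 (Birc2 and Birc3), which marks NIK for degradation. When the receptor is bound, TRAF3 is degraded, NIK accumulates and activates IKK-alpha (Chuk), and IKK-alpha triggers processing of the p100 product of Nfkb2 to p52, which pairs with RelB in the nucleus. In dendritic cells CD40 is the receptor through which helper T cells license antigen presentation. Most of these steps act on proteins, so transcript counts measure how much RNA the pathway's genes make and not NIK stability or p100 processing.

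Of the 8 members with a RefSeq promoter window (GRCm38.p6, 250 bases before to 50 after the start), 2 held the NF-kB consensus in at least 1 window on either strand, Nfkb2 and Traf3. Among all 27025 genes with such a window 9.55% held it in at least 1, and among all 32851 windows 8.46% did. A looser pattern that fixes only the outer bases of the consensus and so includes every consensus match was found in windows of 6 of the 8 members and of 53.5% of all genes. Cd40 and Relb were not among the 8. The stretches below are those next to the first start of each of these 2 genes, Nfkb2 and Traf3. Nfkb2 is itself a known NF-kB target, and its transcript level does not measure p100 processing. Capitals mark the consensus matches and positions count back from the RefSeq start.
Nfkb2, bases -45 to -25, chr19:46304692-46304712, plus strand: cgtcacGGGAATTCCCCccct
Nfkb2, bases -24 to -1, chr19:46304713-46304736, plus strand: cggggggccgaaaGGGGCTTTCCc
Traf3, bases -60 to -1, chr12:111166310-111166369, plus strand: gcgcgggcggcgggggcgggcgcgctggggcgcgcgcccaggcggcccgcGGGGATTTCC
The capitals of the first Nfkb2 stretch span overlapping matches. GENCODE M21 starts 1 Nfkb2 transcript further upstream, so that both Nfkb2 stretches lie in its 5′ untranslated region as well as before the RefSeq start, and they also lie in an exon of the opposite-strand gene AC114539.1. The Traf3 stretch lies in no exon. A match describes letters only and says nothing of binding.

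Library totals were 14466640 to 18862534 counts in MAVS KO and 17357031 to 20851733 counts in WT libraries. The targeted gene, Mavs, stood at 10.4 ± 2.09 CPM (TMM-scaled counts relative to library size; SD, n = 3) in MAVS KO and 37.75 ± 3.32 CPM (SD, n = 3) in WT libraries, with a log2 fold change of -1.86 (adjusted p = 0.0017, edgeR); which part of the gene is deleted is unknown here, so remaining reads are not placed. The sources used here do not say whether each library came from a separate mouse, so p-values measure the spread between these libraries. In these bulk libraries fewer cells of a type and less RNA per cell cannot be told apart. Of the general dendritic cell markers, H2-Ab1 and Itgax were abundant in every library, and Flt3 and Zbtb46 fell. Mean levels in MAVS KO and WT libraries were 12.4 and 49.9 CPM for Flt3, and 8.75 and 20.1 CPM for Zbtb46. Dpp4, at 25.5 and 51.0 CPM, did not pass (adjusted p = 0.0597, edgeR). The listed macrophage markers ranged from Mertk, at 36.2 and 29.3 CPM, to Lyz2, at 22105 and 21636 CPM.

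Cd40 was the member that rose, and none of the other 9 members passed the test. That made 1 of 10 members called at an adjusted p below 0.05, against 2.81% of the 12580 genes tested, of which 1.76% were higher and 1.05% lower (quasi-likelihood test of edgeR, p-values adjusted by Benjamini-Hochberg). Without adjustment Cd40 was likewise the 1 member with p below 0.05, as were 16% of all tested genes. The 9 others had log2 fold changes of at most 0.19 in size, each below the median absolute log2 fold change of all tested genes, 0.23. The median over the 10 members was 0.049, beside -0.0022 over all tested genes. Of the members, 6 had log2 fold changes above 0 and 4 below.

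Cd40 (ENSMUSG00000017652, chromosome 2, 165055627 to 165072948 in mm10, plus strand) encodes a receptor that starts the pathway. It had 106.3, 95.5 and 98.7 CPM in MAVS KO libraries, against 64.0, 48.1 and 71.4 CPM in WT libraries. The lowest MAVS KO library lay above the highest WT library. These levels came from 1892, 1424 and 1348 reads in MAVS KO and 1298, 900 and 1551 reads in WT libraries, so the raw counts of the groups overlapped and the separation appears after scaling to library size. The means were 100.2 ± 5.53 CPM in MAVS KO and 61.2 ± 11.95 CPM in WT hosts (SD, n = 3 each), a ratio of 1.64. The log2 fold change was 0.71 (SE 0.15, 95% interval 0.38 to 1.04, adjusted p = 0.0364, edgeR). Of the 222 genes called higher in MAVS KO, 139 had a larger log2 fold change than Cd40. With 1 library left out the call was kept without WT replicate 3 (adjusted p = 0.0326) and lost without WT replicate 1 (0.0685), WT replicate 2 (0.0792), MAVS KO replicate 1 (0.113), MAVS KO replicate 2 (0.108) and MAVS KO replicate 3 (0.136), with log2 fold changes from 0.56 to 0.84. The share of all tested genes called in these fits was 2.16% without WT replicate 3, 1.51% without WT replicate 1, 1.16% without WT replicate 2, and 0.302%, 0.488% and 0.274% without MAVS KO replicates 1, 2 and 3. With library size alone as the scaling it was 0.54 with an adjusted p of 0.0649, but the median of all genes was then -0.17, and Cd40 stood 0.72 above that median; 3.52% of genes were called there. Cd40 was also called with DESeq2 size factors (2.77% of genes called), no filter (3.48%), a floor of 5 CPM on the mean (4.69%), the DESeq2 Wald test (6.18%), limma-voom (2.54%), robust dispersion (2.79%) and the replicate block (3.29%).

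**Figure D1:**
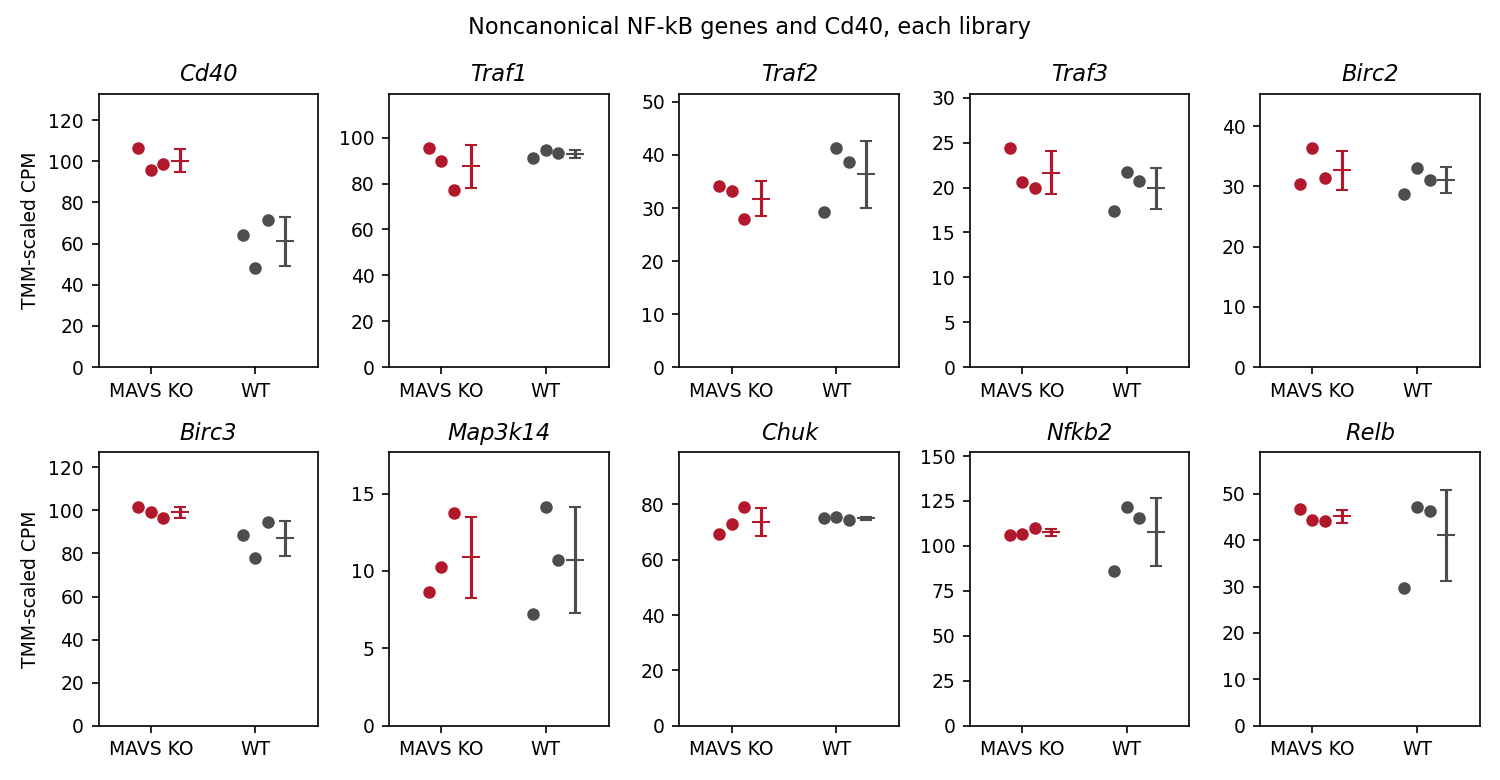
TMM-scaled CPM of the 10 members in each library, with MAVS KO (red) left of WT (grey) and the mean ± SD beside the points. The 3 MAVS KO libraries sit at 95.5 to 106.3 CPM for Cd40, all above the WT libraries, whereas the groups overlap for each other member except Birc3.

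The adaptors downstream of the receptor did not pass. Traf1 encodes an adaptor without the RING domain of its relatives and is a classical NF-kB target. It had 95.4, 89.9 and 77.2 CPM in MAVS KO libraries, against 91.2, 94.7 and 93.2 CPM in WT libraries. The WT values lay close together and within the wider MAVS KO range. The log2 fold change was -0.09 (95% interval -0.34 to 0.17). Traf2, which brings the ubiquitin ligases to the complex, had 34.2, 33.1 and 27.98 CPM in MAVS KO libraries, against 29.2, 41.3 and 38.6 CPM in WT libraries. The groups overlapped, and its log2 fold change of -0.19 (95% interval -0.56 to 0.17) was the lowest among the members. Traf3, the adaptor that holds NIK in the degrading complex and that also takes part in signalling from MAVS to interferon genes, had 24.4, 20.7 and 19.9 CPM in MAVS KO libraries, against 17.4, 21.7 and 20.7 CPM in WT libraries. Its log2 fold change was 0.12 (95% interval -0.25 to 0.49).

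Of the ubiquitin ligases, Birc3 was slightly higher in each MAVS KO library than in any WT library but did not pass. Birc3, which encodes cIAP2 and is induced by NF-kB, had 101.7, 99.3 and 96.3 CPM in MAVS KO libraries, against 88.4, 78.1 and 94.4 CPM in WT libraries. The gap between the groups was narrow, with the lowest MAVS KO library at 96.3 CPM and the highest WT library at 94.4 CPM. The log2 fold change was 0.19 (SE 0.11, 95% interval -0.06 to 0.44, adjusted p = 0.477, edgeR). With Cd40, 2 of 10 members thus had MAVS KO values wholly above WT, as did 11.2% of all tested genes (21.8% did not overlap in either direction). No member had MAVS KO values wholly below WT, as 10.6% of tested genes did. Birc2, which encodes cIAP1, had 30.3, 36.3 and 31.4 CPM in MAVS KO libraries, against 28.8, 33.2 and 31.1 CPM in WT libraries. The groups overlapped, with a log2 fold change of 0.08 (95% interval -0.24 to 0.39).

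The kinases likewise did not pass. Map3k14, encoding NIK, had the fewest reads of the members, from 147 in a WT library to 265 in another WT library. It had 8.65, 10.3 and 13.8 CPM in MAVS KO libraries, against 7.25, 14.1 and 10.7 CPM in WT libraries. The spread within each group was wide, 24.0% of the mean in MAVS KO and 32.2% in WT, and the log2 fold change of 0.02 had the widest interval of the members, -0.60 to 0.64. As a fold, that interval ran from 0.66 to 1.56, and a difference within it was not detectable here. Chuk, encoding IKK-alpha, had 69.3, 72.8 and 79.2 CPM in MAVS KO libraries, against 75.0, 75.3 and 74.5 CPM in WT libraries. The WT libraries lay within 1 CPM of one another, and the log2 fold change was -0.02 (95% interval -0.26 to 0.22).

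The transcription factors at the end of the pathway had closely spaced values in MAVS KO libraries and scattered values in WT libraries. Nfkb2, whose consensus-bearing stretches are printed above, had 106.3, 106.5 and 109.9 CPM in MAVS KO libraries, against 86.1, 121.8 and 115.4 CPM in WT libraries. WT replicate 1 was the lowest library and the other two WT libraries the highest. The means were 107.6 ± 1.998 CPM in MAVS KO and 107.8 ± 19.0 CPM in WT hosts (SD, n = 3 each), with a log2 fold change of -0.0029 (95% interval -0.31 to 0.30, adjusted p = 0.997, edgeR). Relb had 46.8, 44.5 and 44.2 CPM in MAVS KO libraries, against 29.7, 47.3 and 46.3 CPM in WT libraries. Here too WT replicate 1 stood apart below the rest, and the log2 fold change was 0.14 (95% interval -0.25 to 0.53). Across the 9 members other than Cd40, every 95% interval included 0, and the intervals together ran from 0.66-fold to 1.56-fold.

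**Figure D2:**
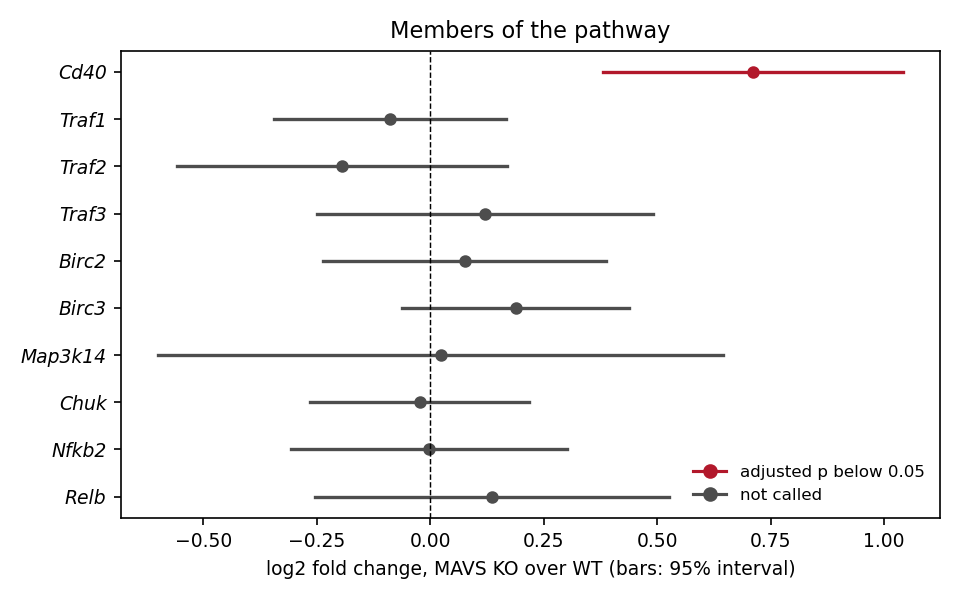
Log2 fold change of each member, MAVS KO over WT, as a point with its 95% interval from edgeR's quasi-likelihood fit across 12580 genes. Cd40, in red, lies at 0.71 with an interval from 0.38 to 1.04, and the intervals of the other 9 members include 0.

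The low values of WT replicate 1 were shared by most members. Within the WT group it was the lowest library for 7 of the 10 members, namely Traf1, Traf2, Traf3, Birc2, Map3k14, Nfkb2 and Relb, and for 37.6% of all tested genes. WT replicate 2 was the highest WT library for 8 of the 10 members, and for 33.7% of all tested genes. It was the lowest for Cd40 and Birc3, and for 33.1% of all tested genes. The WT values of Traf1 and Chuk lay close together (coefficients of variation 1.9% and 0.54%), so their order means little. From low to high the WT libraries ran 2, 1, 3 for Cd40 and Birc3, and 1, 3, 2 for Nfkb2 and Relb. The median coefficient of variation of the members was 8.29% in MAVS KO and 14.4% in WT, beside 15% and 17.2% over all tested genes.

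Levels were compared between genes per kilobase of annotated exon. In MAVS KO libraries Cd40 was highest at 29.4 ± 1.62 CPM per kilobase, followed by Nfkb2 at 23.5 ± 0.44 and Birc3 at 19.8 ± 0.53 CPM per kilobase (SD, n = 3 each). In WT libraries Nfkb2 led at 23.5 ± 4.15 CPM per kilobase, and Cd40 at 17.96 ± 3.51 and Birc3 at 17.4 ± 1.65 CPM per kilobase came next with overlapping ranges (SD, n = 3 each). Chuk, Relb and Traf1 came in the middle of the order in both groups, at 9.92 to 14.5 CPM per kilobase in MAVS KO and 10.55 to 14.7 CPM per kilobase in WT. Birc2 and Traf2 followed at 6.23 to 7.14 CPM per kilobase in MAVS KO and 6.77 to 7.13 CPM per kilobase in WT, and their ranges overlapped in both groups. Traf3 at 2.95 and Map3k14 at 1.66 CPM per kilobase in MAVS KO, and at 2.71 and 1.64 CPM per kilobase in WT, were the lowest. Transcripts of Cd40 and Nfkb2 were thus among the most abundant of the members per kilobase, and those of Map3k14 and Traf3 the least abundant, in both groups. The order depends on dividing by all annotated exons of a gene, 8819 bases for Traf1 and 3406 bases for Cd40. Without that division Traf1 stood at 87.5 CPM in MAVS KO and 93.0 CPM in WT libraries, where Cd40 had 100.2 and 61.2 CPM. Cd40 supplied 17.0%, 15.7% and 16.5% of the reads of the 10 members in MAVS KO libraries, against 12.4%, 8.35% and 12% in WT libraries.

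**Figure D3:**
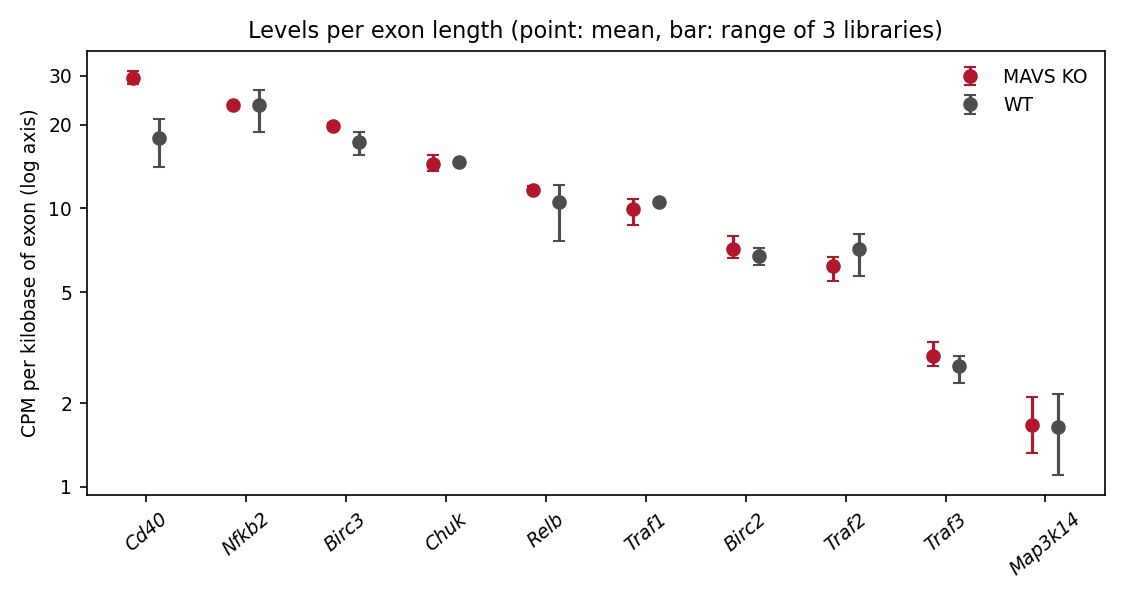
Level of each member in CPM per kilobase of exon on a log axis, with MAVS KO (red) left of WT (grey), the point at the mean and the bar over the range of the 3 libraries. Cd40 is the highest member in MAVS KO at 29.4 CPM per kilobase and overlaps Nfkb2 and Birc3 in WT, while Map3k14 is the lowest in both groups.

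Ratios of member counts within a library, which do not depend on scaling between libraries, overlapped between the groups in each of the 5 pairs examined. The noncanonical subunit Nfkb2 had 2.17 ± 0.17 reads per read of its canonical counterpart Nfkb1 in MAVS KO and 2.36 ± 0.76 in WT libraries (SD, n = 3 each). Relb had 0.56 ± 0.06 reads per read of Rela in MAVS KO and 0.60 ± 0.11 in WT libraries (SD, n = 3 each). Traf1 had 2.75 ± 0.04 reads per read of Traf2 in MAVS KO and 2.61 ± 0.45 in WT libraries, and Birc3 had 3.05 ± 0.31 reads per read of Birc2 in MAVS KO and 2.82 ± 0.40 in WT libraries (SD, n = 3 each). Map3k14 had 0.51 ± 0.17 reads per read of Traf3 in MAVS KO and 0.53 ± 0.12 in WT libraries (SD, n = 3 each). Exact two-sided permutation tests gave p from 0.5 to 0.9 (Benjamini-Hochberg 0.9 over the 5), where the smallest p that 3 against 3 libraries allow is 0.1.

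**Figure D4:**
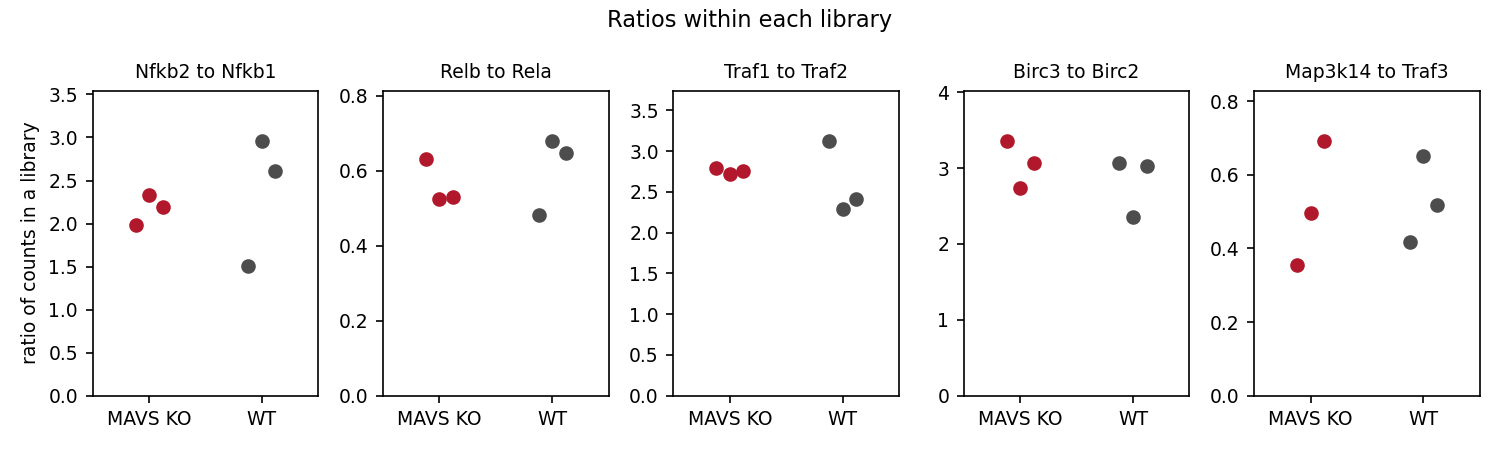
Ratio of read counts of 2 genes in each library, with MAVS KO (red) left of WT (grey), 1 point per library. The groups overlap in all 5 panels, and the WT libraries spread more widely than the MAVS KO libraries for Nfkb2 to Nfkb1, at 1.51 to 2.96 in WT.

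Beyond the members, 42 further genes of the pathway were listed as ligands, receptors, regulators, targets and canonical NF-kB genes, of which 33 were tested. Of these 33, 1 rose, none fell and 32 did not pass, a share close to the 2.81% called among all tested genes. Their median log2 fold change was 0.067, with 20 above 0 and 13 below. The gene that rose was Tnfrsf9, which encodes 4-1BB, a costimulatory receptor of the same family as CD40 that signals through TRAF1 and TRAF2. It had 871.9, 1122 and 830.7 CPM in MAVS KO libraries, against 348.2, 491.1 and 592.4 CPM in WT libraries. The groups did not overlap, and the log2 fold change was 0.98 (SE 0.18, 95% interval 0.57 to 1.39, adjusted p = 0.0263, edgeR). It lost its call without WT replicate 2 (adjusted p = 0.0635), MAVS KO replicate 1 (0.0634), MAVS KO replicate 2 (0.101) or MAVS KO replicate 3 (0.0868).

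Cd40lg, the ligand of CD40 on helper T cells, had 4, 1 and 7 reads in MAVS KO libraries, against 3, 9 and 9 reads in WT libraries, and was not tested. Of the 4 ligand genes tested none passed. Tnfsf12, which encodes TWEAK, had 5.79, 10.6 and 8.79 CPM in MAVS KO libraries, against 2.51, 5.02 and 4.10 CPM in WT libraries (log2 fold change 1.11, 95% interval 0.37 to 1.86, adjusted p = 0.125, edgeR). Tnfsf13b, which encodes BAFF, had a log2 fold change of 0.58 (95% interval 0.15 to 1.02, adjusted p = 0.17, edgeR). Among the other 8 receptors tested none passed. Tnfrsf8, which encodes CD30, rested on 19, 17 and 12 reads in MAVS KO and 1, 2 and 8 reads in WT libraries (log2 fold change 2.49, 95% interval 0.75 to 4.23, adjusted p = 0.141, edgeR).

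None of 11 regulators tested passed. The smallest p among them belonged to Zfp91 (log2 fold change 0.50, 95% interval -0.06 to 1.06), a ubiquitin ligase that stabilises NIK, and to the kinase Tbk1 (0.20, 95% interval -0.08 to 0.49). Of the 6 listed targets, 1 was tested, the costimulatory ligand Icosl, with a log2 fold change of -0.56 (95% interval -1.36 to 0.24). The chemokines Ccl19 and Ccl21a were not analysed here. Among 8 canonical NF-kB genes none passed. Rel, which encodes c-Rel, had 124.4, 109.0 and 113.2 CPM in MAVS KO libraries, against 140.3, 187.9 and 158.6 CPM in WT libraries. The groups did not overlap (log2 fold change -0.49, 95% interval -0.77 to -0.21, adjusted p = 0.0757, edgeR), and the gene passed in 5 of 14 alternatives: with the DESeq2 Wald test (adjusted p = 0.0124), library size alone (0.0278), no filter (0.0102), a floor of 5 CPM on the mean (0.0463) and without WT replicate 1 (0.0469). In the other 9 alternatives its adjusted p was 0.0693 to 0.271. Nfkbia, which encodes the inhibitor IkB-alpha, had 1121, 1038 and 1016 CPM in MAVS KO libraries, against 803.8, 926.0 and 816.8 CPM in WT libraries (log2 fold change 0.32, 95% interval 0.10 to 0.53, adjusted p = 0.129, edgeR).

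**Figure D5:**
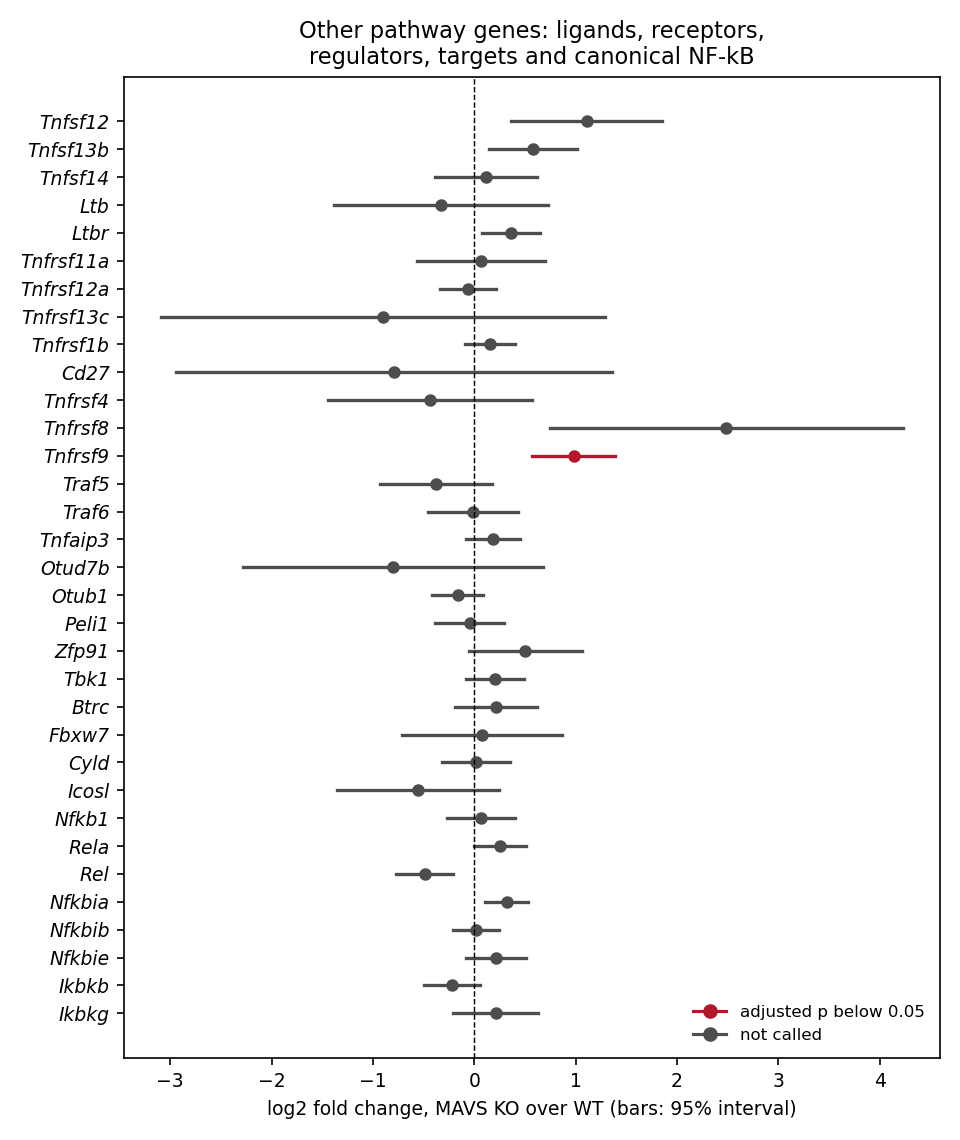
Log2 fold change, MAVS KO over WT, with 95% intervals for the 33 tested genes of the pathway that are not among the 10 members, ordered as ligands, receptors, regulators, a target and canonical NF-kB genes. Tnfrsf9 is the single gene called, in red at 0.98, and low-count genes such as Tnfrsf8 have the widest intervals.

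Markers of cell types that express CD40 moved with the groups in part, and their part in the Cd40 result was not tested. Of 8 tested markers of mature migratory dendritic cells 3 rose, Ccr7, Ccl22 and Cd200, and none fell, beside 1.76% of all tested genes called higher. All 8 had log2 fold changes above 0, with a list median of 0.84. The summed level of the 10 listed markers was 788.5 to 970.1 CPM in MAVS KO and 661.8 to 717.8 CPM in WT libraries. It was mostly that of Tmem123, at 480.8 to 526.1 CPM in MAVS KO and 419.5 to 481.7 CPM in WT libraries. Tmem123 overlapped between the groups and did not pass (adjusted p = 0.558, edgeR). Lamp3 and Il4i1, which help define that state, stayed below 1 CPM in every library. Of 8 type 1 conventional dendritic cell markers Xcr1, Itgae and Wdfy4 fell, beside 1.05% of all tested genes called lower. Of the 8, 7 had log2 fold changes below 0, with a list median of -0.76. Their summed level was 498.1 to 544.8 CPM in MAVS KO and 441.6 to 761.6 CPM in WT libraries. It was mostly that of Irf8, the 1 gene above 0, at 428.0 to 450.1 CPM in MAVS KO and 295.8 to 537.1 CPM in WT libraries. Clec9a, among those below 0, hardly differed, at 7.15 CPM in MAVS KO and 7.49 CPM in WT libraries (log2 fold change -0.07, adjusted p = 0.939, edgeR). Of 5 type 2 markers Sirpa rose and Cd209a fell, and 3 of the 5 had log2 fold changes below 0, with a list median of -0.09. Their summed level, 2504 to 4250 CPM in MAVS KO and 2199 to 2458 CPM in WT libraries, was mostly that of Mgl2, which did not pass (adjusted p = 0.14, edgeR). Sirpa lies within 15 Mb of Mavs, where 11.7% of the other tested genes were called. None of 10 macrophage markers passed, but 7 of the 10 had log2 fold changes above 0, with a list median of 0.32. The MAVS KO libraries lay wholly above the WT libraries for C1qa, C1qb, C1qc, Mrc1 and Fcgr1, and wholly below them for Apoe. Their summed level, 26705 to 34409 CPM in MAVS KO and 25316 to 30540 CPM in WT libraries, was mostly that of Lyz2, at 19241 to 27284 CPM in MAVS KO and 19007 to 23584 CPM in WT libraries. For B cells, which carry CD40, Cd79a and Ms4a1 were below 1 CPM in every library and Ighm fell, with a summed level of 10.2 to 11.96 CPM in MAVS KO and 31.5 to 52.2 CPM in WT libraries. None of 7 T cell, 5 natural killer cell, 2 epithelial or 5 fibroblast markers tested passed. Of 5 monocyte markers Chil3 rose, but 3 had log2 fold changes below 0, with a list median of -0.17. Of 4 tested neutrophil markers Mmp8 rose and 3 were above 0 (median 0.43). Of 4 tested endothelial markers Flt1 rose and 3 were above 0 (median 0.53). In MAVS KO the monocyte marker Ccr2 and the endothelial marker Kdr lay wholly below WT but did not pass. S100a9, Retnlg and Cdh5, also listed, stayed below 1 CPM in every library.

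Among the genes whose levels followed those of Cd40 most closely over the 6 libraries were Slc31a2, Cndp2, Pfkfb3 and Lgals3. Their log2 profiles, each centred on its own mean, differed from that of Cd40 by 0.05 to 0.08 on average per library. Pfkfb3, an activator of glycolysis, had 119.0, 91.4 and 115.4 CPM in MAVS KO libraries, against 68.5, 52.6 and 76.2 CPM in WT libraries. Lgals3, which encodes galectin-3, had 8100, 7166 and 8024 CPM in MAVS KO libraries, against 4501, 4144 and 5384 CPM in WT libraries. As for Cd40, the lowest value of each of these 4 genes came from WT replicate 2. The genes were picked for profiles close to that of Cd40, so a shared lowest library and direction follow from that choice. Cndp2, Pfkfb3 and Lgals3 were called higher, and Slc31a2 was not (log2 fold change 0.61, adjusted p = 0.0695, edgeR).

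The reads of some members could not be assigned with certainty. Nfkb2 shares 299 exonic bases with the opposite-strand gene Psd and 531 with AC114539.1. Of the 50-base words in its transcripts, 14.9% occur in transcripts of 2 other genes. Words were searched on both strands, so this share can include the overlaps just named and is not a separate source. Psd had 142, 133 and 158 reads in MAVS KO libraries, against 62, 208 and 212 reads in WT libraries. WT replicate 1 was the lowest WT library for Psd as for Nfkb2, which had 1747, 2281 and 2506 reads in WT libraries. Any part of Psd reads in the Nfkb2 counts was not tested. For Birc3 the share of such words was 7.56%, and for the other 8 members it was at most 1.79%. Map3k14 shares 135 exonic bases with 1700028N14Rik on the same strand, a gene with 0 to 7 reads in MAVS KO and 4 to 15 reads in WT libraries. Birc2 and Birc3, neighbours on chromosome 9 with related sequences, had 1.49% and 7.56% of words shared with any other gene.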

How the data were processed

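The deposited table holds raw read counts per Ensembl mouse gene, made by the authors; the submitters' processing notes name mm10, DESeq2, HTSeq, HISAT and HISAT2, with no role or version. The sources used here do not give the annotation release or the strandedness, so reads of overlapping opposite-strand genes cannot be told apart. Symbols, positions and exon lengths came from GENCODE M21 (GRCm38, the same assembly as mm10), which matched 26383 of 26519 identifiers.

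Counts were filtered with filterByExpr (minimum count 10, minimum total 15), scaled by TMM and tested with edgeR 4.0.16 in R 4.3.3 (quasi-likelihood F test, no covariates, Benjamini-Hochberg over 12580 genes, threshold 0.05). CPM values are TMM-scaled; SE and 95% intervals come from the fit. The procedure was tested on simulated data, with changes set in genes drawn from all tested levels. It called 15.8% of 1.5-fold changes, 54.5% of 2-fold changes and 0.0498% of unchanged genes. Libraries of a group differed beyond sampling noise (chi-square over its degrees of freedom 15.9 to 38.8). Ratios used exact permutation tests (scipy 1.17.1). Profile distances used log2(CPM + 0.5).

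Named genes were Mavs, the 10 members, pathway genes that passed, the 2 with the smallest p per pathway list, called cell type markers and the 5 profiles nearest Cd40; Cd40lg, Psd, 1700028N14Rik and cell type markers that were not called, outside that rule, were named after their values were seen. Some genes that the rule names are not reported here. The members and lists were chosen with earlier results of these data known. Alternatives were DESeq2 1.42.0 (size factors; Wald test), library size, other filters, limma-voom (limma 3.58.1), robust dispersion, a replicate block and leaving out each library.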

Additional observations from a re-analysis of the deposited data

How the results depend on the processing

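Leaving out 1 library at a time gave 36 to 277 called genes, 0 to 1 called members, 0 to 2 other called pathway genes and a median log2 fold change of the members from -0.045 to 0.11. The count of called genes was 924 with no filter and 778 with the DESeq2 Wald test, against 354. With library size alone no member passed, the members' median was -0.12, and Traf3 (-0.048), Birc2 (-0.095), Map3k14 (-0.15) and Relb (-0.0335) turned below 0, where the median of all genes was -0.17. Other called pathway genes numbered 2 with library size alone, 4 with no filter, 2 with a floor of 5 CPM on the mean, and 3 with the DESeq2 Wald test, and the additional ones were among Rel, Tnfsf12 and Tnfsf13b. Nfkb2 was 0.013 with limma-voom and 0.013 with the replicate block. Leaving out libraries gave log2 fold changes of -0.0051 to 0.13 for Birc2, -0.20 to 0.26 for Map3k14, -0.075 to 0.019 for Chuk, -0.15 to 0.086 for Nfkb2 and -0.058 to 0.24 for Relb, none of which passed. The log2 differences of ratios ran from -0.36 to 0.13 (Nfkb2 to Nfkb1), -0.24 to 0.0039 (Relb to Rela), -0.0060 to 0.195 (Birc3 to Birc2) and -0.31 to 0.17 (Map3k14 to Traf3). The cause of these differences was not tested. The labels do not say whether replicate numbers pair the libraries. Deviations of same-numbered libraries from their group means correlated at 0.038, 0.087 and -0.043 over genes. In MAVS KO 1 of 3 libraries correlated best with its own number. With 3 libraries per group these correlations cannot settle whether the libraries were paired. The replicate block gave 414 called genes, and Cd40 was 0.73 (adjusted p = 0.0248, edgeR) under it. Cd40 kept its direction in all 14 alternatives, which reuse these libraries. Its MAVS KO values lay wholly above WT, so leaving out 1 library could hardly reverse it. Of the fits that left out a library, 1 kept the call of Cd40. At this depth and n = 3, the intervals of the members other than Cd40 ran together from 0.66-fold to 1.56-fold.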

Other observations

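Cd40 lies on the chromosome of Mavs, 33.8 Mb from it. Within 5 Mb of Cd40, 2 of 72 other tested genes were called (2.78%), Sdc4 and Slc35c2, 1 higher and 1 lower, beside 2.81% of all tested genes. Both lie within 1 Mb of Cd40, where they were 2 of 29 (6.9%). Within 15 Mb of Cd40 7 of 227 were called (3.08%), whereas within 15 Mb of Mavs 24 of 205 were called (11.7%). Traf1 and Traf2 lie on the same chromosome, 96.3 and 105.7 Mb from Mavs, and neither passed.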
